A study of Mus musculus with 18 samples.

Results

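Of 18 libraries of mouse bone marrow-derived macrophages, 12 came from day 0 or day 1 of osteoclast induction, and their titles are written in 2 styles. In 5 of the 12 the title has a double hyphen with the day letter first, and in 7 it has a single hyphen with the day number first. Libraries were placed in a style by the title alone, without use of any measured value. The labels do not say what the title style stands for, so it is used here only as a property of the title. The 6 libraries of day 3 all have single-hyphen titles and were not part of the comparison. The comparison asked which proliferation, activation and lineage genes differed between the title styles when the genotype label and the day were held equal.

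The cells came from C57BL/6 mice labelled Zmat1 knockout (KO), a knockout present in all tissues, and from their wild-type (WT) littermates, and the study's methods give an age of 4 to 8 weeks at killing. Bone marrow cells of both labels were grown in M-CSF, the cytokine that keeps macrophages alive and dividing. Day 0 libraries received no RANKL, and day 1 libraries received RANKL, the cytokine that turns macrophages into osteoclasts, for 1 day. Of the libraries labelled WT on day 0, 2 were single-hyphen (replicates 2 and 3) and 1 was double-hyphen (replicate 1). On day 0 the libraries labelled KO had the same split, with single-hyphen replicates 1 and 3 and double-hyphen replicate 2. The libraries labelled WT on day 1 were single-hyphen replicates 1 and 2 and double-hyphen replicate 1. Those labelled KO on day 1 were single-hyphen replicate 3 and double-hyphen replicates 1 and 2. The labels do not say whether libraries came from separate animals or cultures, so the p-values measure the spread between these libraries. In such bulk samples, fewer cells of a type and less RNA per cell cannot be told apart.

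Macrophages grown from marrow in M-CSF divide while they mature, and they lose the genes of circulating monocytes as they gain lysosomes and scavenger receptors. RANKL first switches on transcription factors and then cell fusion and bone-degrading genes, while repressors such as Irf8 and Bcl6 hold that programme back. A marrow culture can also hold stromal cells, granulocytes and other lineages, whose marker genes were therefore examined beside those of macrophages.

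The targeted gene gave no separation by label. Zmat1, which encodes a zinc finger protein, had 32 and 43 reads in the single-hyphen and 91 in the double-hyphen WT-labelled library of day 0, and 49, 59 and 99 in those labelled KO. On day 1 the WT-labelled libraries had 59, 64 and 48 reads, and the KO-labelled ones had 93, 63 and 74. A group is therefore called labelled WT or labelled KO throughout, and Zmat1 itself did not pass the test between title styles (log2 difference 0.49 ± 0.28, SE, adjusted p = 0.244). The study reports genotyping of its mice by PCR of tail DNA and quantitative PCR of Zmat1 mRNA in macrophages of both genotypes. Where in the gene the reads fell was not examined, so these counts do not test the knockout.

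Reads fell differently on the transcriptome in the double-hyphen libraries. Total counts overlapped, at 13789775 to 16177131 in the single-hyphen and 14190182 to 17559958 in the double-hyphen libraries (p = 0.321, exact permutation test within label and day). The 10 most abundant genes took 11.8% to 15.3% of reads in the single-hyphen libraries and 18.02% to 19.9% in the double-hyphen ones. Genes encoded in mitochondrial DNA took 1.35% to 2.01% against 2.76% to 3.49%, and cytosolic ribosomal protein genes took 1.14% to 1.43% against 0.777% to 1.12%. The number of genes with a read was 15820 to 16597 against 15278 to 16184. Each of these 4 measures gave p = 0.0123, the smallest that the exact permutation test allows here, or 0.0154 adjusted over all 5 measures, total counts included. These 4 measures differed by title style, the property compared below, and their part in the style differences given below was not tested.

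**Figure D1:**
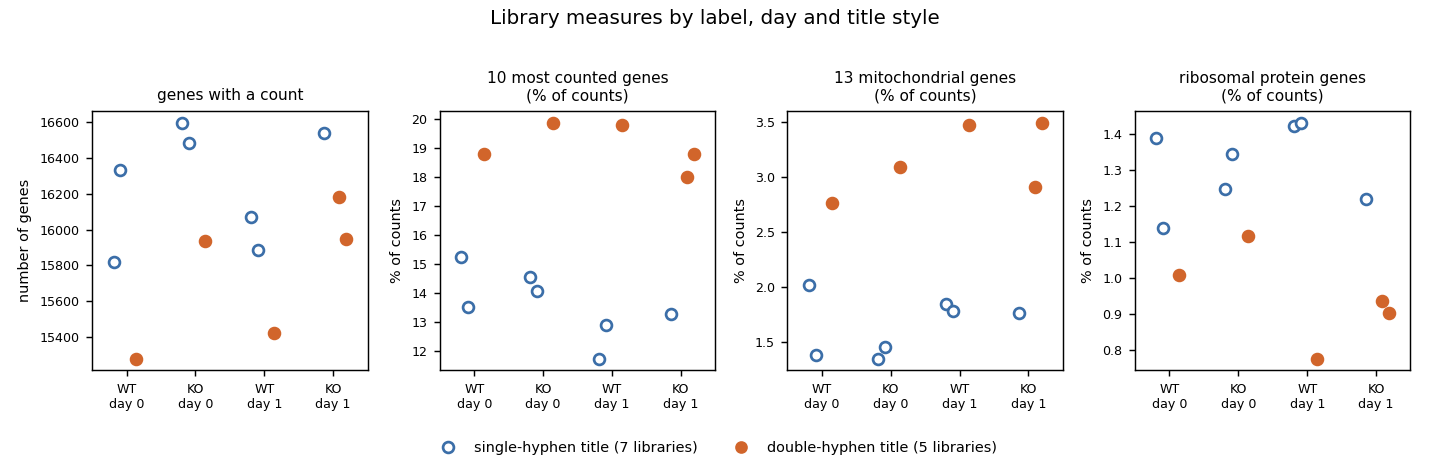
Share of reads in the 10 most abundant genes, share of reads in mitochondrially encoded genes, share in cytosolic ribosomal protein genes, and number of genes with a read, each plotted for the 12 libraries by label and day. Open blue points are single-hyphen and filled orange points are double-hyphen libraries. The orange points lie between 18.02% and 19.9% for the 10 most abundant genes and the blue points between 11.8% and 15.3%.

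In the fit over days 0 and 1, 2167 of 13577 genes tested (16.0%) passed an adjusted p of 0.05 (edgeR quasi-likelihood test, Benjamini-Hochberg adjustment over all 13577). Of these, 1038 (7.65%) were higher and 1129 (8.32%) were lower in the double-hyphen libraries. A fitted difference above 2-fold was reached by 886 of them, and the median difference over all genes was 0.00 on the log2 scale. The direction was the same in all 4 combinations of label and day for 2146 of the 2167 (99.0%), against 5520 of all 13577 genes (40.7%). The styles did not overlap within any of the 4 for 1896 (87.5%), where 10.6% of all genes had no overlap and were higher and 11.5% had none and were lower. In 656 of the 2167 (30.3%) the 5 double-hyphen libraries lay wholly outside the range of the 7 single-hyphen ones, and the share over all genes is not given here. The style test picked the 2167 from these same libraries, so such agreement follows in part from that choice.

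The size of that count moved with the fit and with single libraries. With the title's replicate number as a block in the fit it was 218, and 29 when the number was taken within label. It was 3262 without WT day 0 single-hyphen replicate 2, and 1068 and 766 without the WT double-hyphen libraries of day 0 and day 1. It was 1343 without KO day 0 single-hyphen replicate 3, 1114 without KO day 0 double-hyphen replicate 2 and 1257 without WT day 1 single-hyphen replicate 2. It was 925 without KO day 1 single-hyphen replicate 3, and 1359 and 991 without the KO day 1 double-hyphen replicates 1 and 2. Scaling by total counts in place of TMM called 3332 genes, of which 11.9% were higher, against 47.9% of the calls under TMM, and it moved the median of all genes to -0.22 on the log2 scale. WT day 0 single-hyphen replicate 2 stood apart from the other single-hyphen libraries on the first principal component, at -45.2 against 16.9 to 51.0, while the double-hyphen libraries ran from -59.8 to 9.75. It lay low for many of the division genes given next.

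Genes of cell division were lower in the double-hyphen libraries. Of 28 mitosis genes tested, 27 fell and none rose, with a median log2 difference of -1.60 against 0.00 over all genes, and 16.0% of all genes were called. All 28 were lower in each of the 4 combinations of label and day, where 40.7% of all genes kept 1 direction in all 4. Of them, 15 did not overlap within any of the 4, where 11.5% of all genes were lower without overlap. Ube2c, the ubiquitin-conjugating enzyme that works with the anaphase-promoting complex (chr2:164769898-164778822, GRCm38), had 10.7, 13.3, 4.95, 14.7 and 15.1 CPM (counts scaled to the effective library size) in the double-hyphen libraries, in the order WT day 0, KO day 0, WT day 1 and the 2 KO libraries of day 1. The single-hyphen libraries ran from 23.5 over a median of 36.5 to 60.8 CPM. Every double-hyphen library was thus below every single-hyphen one, and the fitted log2 difference was -1.96 ± 0.30 (SE, adjusted p = 0.0053). Hmmr, a spindle-associated hyaluronan receptor, fell by 1.90 on the log2 scale, and both genes stayed called when each of the 12 libraries was left out in turn.

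Other members of the mitosis list covered the sequence from entry to exit. Among those that fell were the cyclins Ccna2, Ccnb1 and Ccnb2 (log2 differences -1.63, -1.82 and -1.71), the mitotic kinases Plk1 and Aurka (-1.74 and -1.68), the spindle checkpoint kinases Bub1 and Ttk (-1.86 and -1.85) and Foxm1, a transcription factor of mitotic genes (-1.57). Mki67, the nuclear protein used as a proliferation marker, had 80.8, 71.5, 47.2, 78.4 and 65.6 CPM in the double-hyphen libraries in the same order, against 88.0 to 256 with a median of 152 in the single-hyphen ones. The groups did not overlap, and Mki67 differed by -1.17 ± 0.26 on the log2 scale (adjusted p = 0.0195). Cenpa, the centromeric histone, was the member that did not pass (-0.50 ± 0.34, adjusted p = 0.338). The summed level of the 28 genes was 358, 446, 283, 471 and 474 CPM in the double-hyphen libraries, against 464 to 1633 CPM with a median of 1146 in the single-hyphen ones, where the lowest value was that of WT day 0 replicate 2. The number that fell was 13 without KO day 1 single-hyphen replicate 3, 15 without WT day 1 double-hyphen replicate 1, and 21 to 27 without any other library. It was 27 under total-count scaling.

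Because the mitosis genes moved together, their promoters were read for 2 short motifs that are common upstream of such genes, TTTGAA (the core of the cell cycle homology region) and CCAAT, on both strands and with overlaps allowed. In the RefSeq windows from 250 bases before to 50 bases after each start, 17 of 23 mitosis genes with an entry (73.9%) held TTTGAA, as did 3 of 26 DNA replication genes (11.5%) and 11.9% of 9904 tested genes with an entry. CCAAT was held by 87.0% of the mitosis, 53.8% of the DNA replication and 38.9% of all these genes, and both motifs by 69.6%, 7.69% and 5.01%. Without the 50 bases after the start, TTTGAA was held by 30.4%, 11.5% and 10.6%, so much of the gap lay within those 50 bases. These matches describe the sequence and say nothing of whether a factor was bound. The 160 bases before the start are shown for 3 mitosis genes that fell and carry both motifs and, for contrast, for Tk1 of the DNA replication list, which fell too and has neither motif in this stretch (RefSeq, GRCm38.p6, 5′ to 3′ on the gene's strand, capitals mark TTTGAA or its reverse complement TTCAAA and CCAAT or its reverse complement ATTGG). Ube2c lies at chr2:164769769-164769928 on the plus strand, Cdc20 at chr4:118437344-118437503, Top2a at chr11:99024190-99024349 and Tk1 at chr11:117826015-117826174, these on the minus strand.
Ube2c: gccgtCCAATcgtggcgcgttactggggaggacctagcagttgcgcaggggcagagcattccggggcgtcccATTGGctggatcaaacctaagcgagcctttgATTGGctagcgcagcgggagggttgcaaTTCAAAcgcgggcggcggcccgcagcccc
Cdc20: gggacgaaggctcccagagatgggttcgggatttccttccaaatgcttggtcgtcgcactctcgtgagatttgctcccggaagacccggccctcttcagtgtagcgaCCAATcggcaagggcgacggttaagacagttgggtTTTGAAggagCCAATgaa
Top2a: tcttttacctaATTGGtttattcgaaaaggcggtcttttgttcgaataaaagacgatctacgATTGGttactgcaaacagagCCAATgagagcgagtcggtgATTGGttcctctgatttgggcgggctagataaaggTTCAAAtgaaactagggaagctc
Tk1: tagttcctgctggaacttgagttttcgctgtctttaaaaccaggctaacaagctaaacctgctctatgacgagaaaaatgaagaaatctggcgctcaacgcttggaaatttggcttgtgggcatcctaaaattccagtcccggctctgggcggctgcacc
Cdc20, the activator of the anaphase-promoting complex, differed by -1.74 ± 0.36 on the log2 scale (adjusted p = 0.0155), and Top2a, the topoisomerase that untangles replicated DNA, by -1.64 ± 0.37 (adjusted p = 0.0199). The 3 mitosis stretches hold 1 TTTGAA each and 3, 2 and 4 CCAAT, and these genes were picked for carrying both motifs. Tk1 does not stand for its list, since Uhrf1 of that list, not shown, holds 1 CCAAT and 0 TTTGAA in the same stretch.

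DNA replication genes lay lower too. Of 30 tested, 11 fell and none rose, and the other 19 were also below 0, for a median log2 difference of -1.06. Tk1, the salvage enzyme that makes thymidine phosphate in S phase, had 7.86, 10.5, 7.51, 13.8 and 11.6 CPM in the double-hyphen libraries, against 9.75 to 63.6 CPM with a median of 27.8 in the single-hyphen ones. The ranges overlapped only through the lowest single-hyphen library, and the log2 difference was -1.84 ± 0.32 (adjusted p = 0.00869). Rrm2, a subunit of the enzyme that makes deoxynucleotides, ran from 13.3 to 29.1 CPM against 10.3 to 96.0 CPM (-1.73 ± 0.41, adjusted p = 0.023). Uhrf1, which guides maintenance DNA methylation, differed by -1.80 ± 0.47 (adjusted p = 0.032) and stayed called in 3 of 12 omissions. The helicase subunits Mcm4, Mcm5 and Mcm7 fell as well (-0.92, -1.46 and -1.13), while Pcna, the sliding clamp, did not pass (-0.12 ± 0.19, adjusted p = 0.704). The number of replication genes that fell was 25 without WT day 0 single-hyphen replicate 2 and 22 under total-count scaling. It was 1 without either KO day 1 single-hyphen replicate 3 or WT day 1 double-hyphen replicate 1, and 3 without KO day 0 or KO day 1 double-hyphen replicate 2. It was 5 without KO day 0 single-hyphen replicate 3 or KO day 1 double-hyphen replicate 1, and 6 without WT day 0 double-hyphen replicate 1 or WT day 1 single-hyphen replicate 2.

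**Figure D2:**
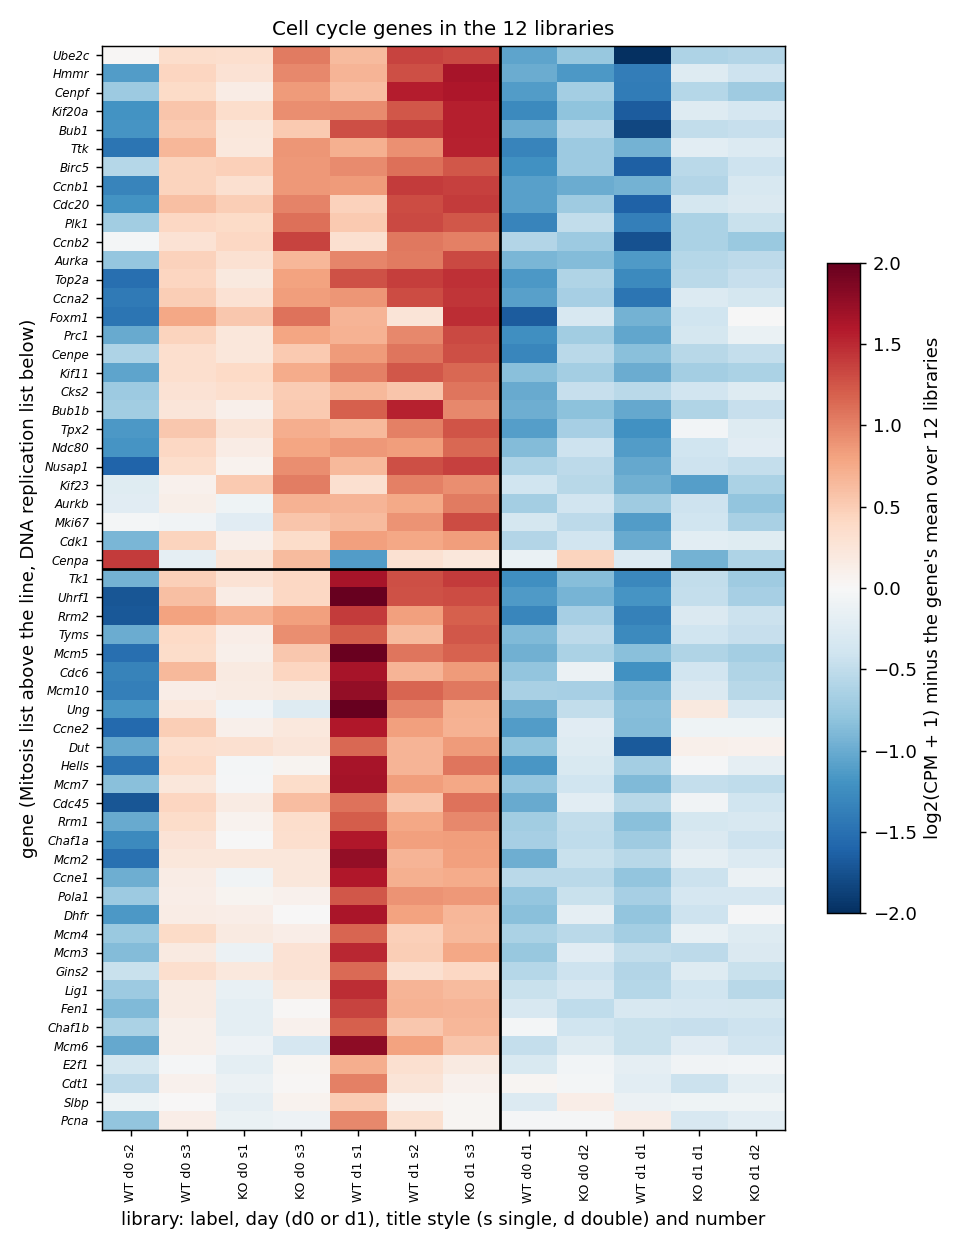
Heat map of the 28 mitosis and 30 DNA replication genes (vertical) in the 12 libraries (horizontal), with single-hyphen libraries left of the line and double-hyphen ones right of it. Colour is the gene's log2(CPM + 1) less its mean over the 12 libraries, and the double-hyphen columns and that of WT day 0 single-hyphen replicate 2 are low for most mitosis genes.

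Among 18 genes that hold the cell cycle back, 3 rose and none fell, with a median log2 difference of 0.08. Total-count scaling called 2 higher and 4 lower and DESeq2 3 each way, and the number that rose was 4 without WT day 0 single-hyphen replicate 2, 2 without WT day 0 single-hyphen replicate 3 or KO day 1 double-hyphen replicate 1, and 1 without each other library. Gadd45a, a growth arrest and stress gene (chr6:67035096-67037457), had 52.4, 63.5, 73.9, 26.3 and 46.2 CPM in the double-hyphen libraries and 7.04 to 24.5 CPM, median 13.9, in the single-hyphen ones. The ranges did not overlap, and the log2 difference was 1.96 ± 0.28 (adjusted p = 0.00446), a call that held in all 12 omissions. Cdkn1c, an inhibitor of cyclin-dependent kinases, was at 2.90, 4.25, 14.5, 2.68 and 5.44 CPM against 0.713 to 2.33 CPM (1.85 ± 0.53, adjusted p = 0.0427, called in 3 of 12 omissions), and Cdkn1b, a related inhibitor, differed by 0.59 ± 0.18 (adjusted p = 0.0491). Cdkn1a, the p53 target, did not pass (0.10 ± 0.13, adjusted p = 0.634). Of 71 replication-dependent histone genes, 15 had enough reads to be tested, and 2 rose. Under total-count scaling none of these was higher and 1 was lower, and the number that rose was 0 without either WT double-hyphen library, 2 to 4 without the WT day 0 single-hyphen libraries and 1 without each other library.

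**Figure D3:**
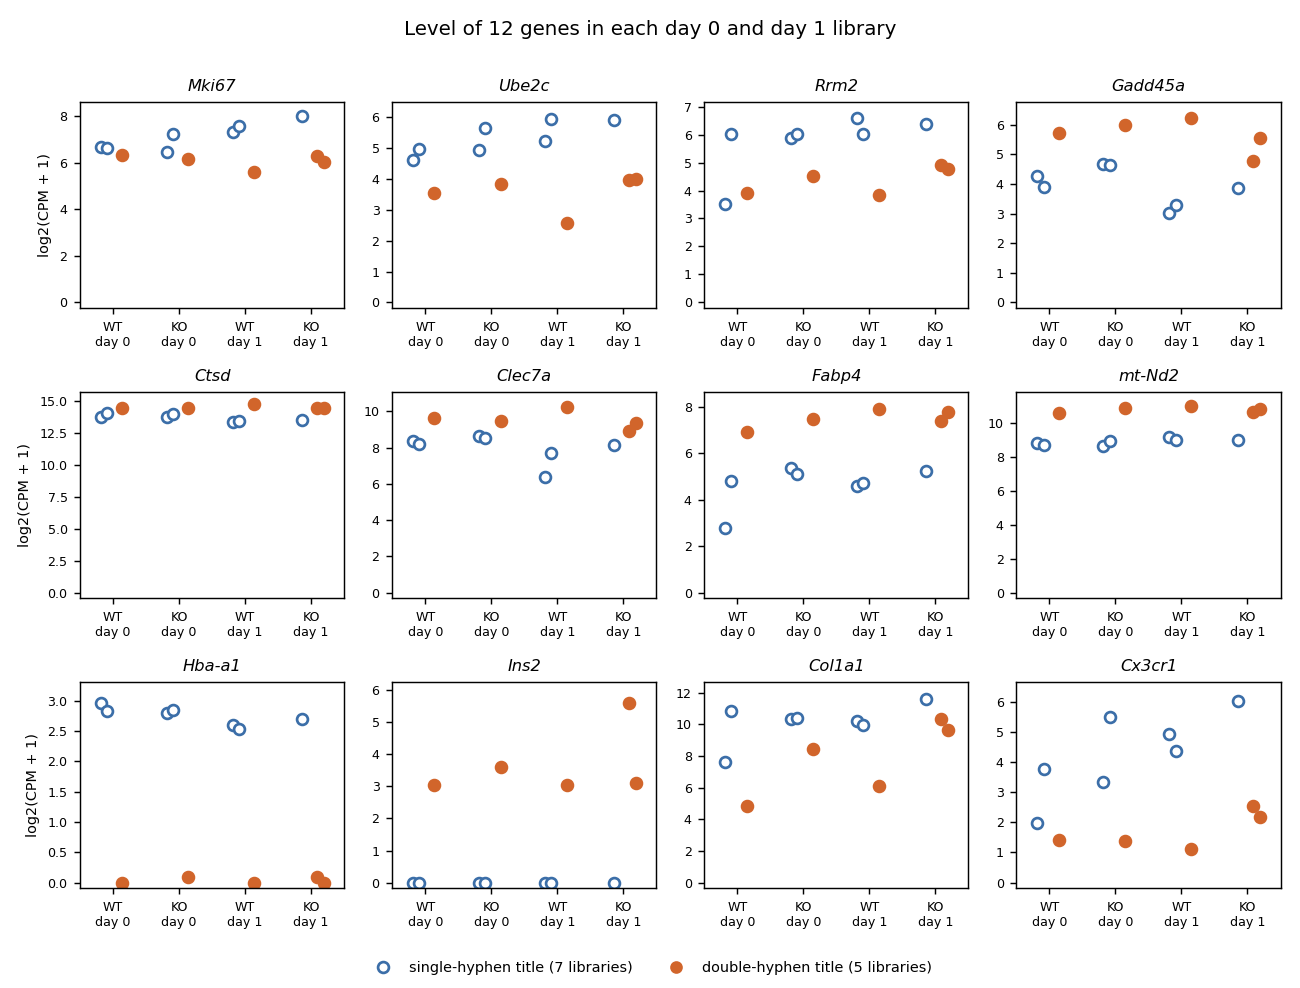
Levels of 12 genes as log2(CPM + 1), by label and day, with 1 point for each of the 12 libraries, open blue for single-hyphen and filled orange for double-hyphen. Ube2c, Mki67 and Cx3cr1 lie lower and Gadd45a, Ctsd, Clec7a, Fabp4 and mt-Nd2 higher in orange, while Ins2 is at 0 in all 7 blue libraries.

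Activation genes did not move one way. Of 25 inflammatory cytokine and NF-kB feedback genes, 4 rose and 1 fell, with a median log2 difference of 0.52. Over all genes 7.65% rose and 8.32% fell, the shares to set beside this and each later list. Tnf, a cytokine of activated macrophages, was at 7.48, 7.71, 6.35, 13.03 and 9.53 CPM in the double-hyphen libraries and at 1.94 to 4.67 CPM, median 2.52, in the single-hyphen ones, without overlap (1.45 ± 0.22, adjusted p = 0.00557). The chemokines Ccl3 and Ccl4 rose as well (1.45 ± 0.36 and 1.17 ± 0.33), as did Tnfaip3, which switches NF-kB signalling off (0.81 ± 0.22). Ptgs2, the inducible enzyme of prostaglandin synthesis, went the other way, with 0.382, 1.49, 3.64, 2.62 and 2.95 CPM against 2.56 to 12.3 CPM (-2.16 ± 0.33, adjusted p = 0.00538). Tnf and Ptgs2 stayed called in all 12 omissions and Ccl3 in 9. Il1b and Nos2, products of strong inflammatory activation, did not pass (-0.60 ± 0.55 and -1.51 ± 0.66, adjusted p = 0.483 and 0.14). Under total-count scaling 2 of the 25 were higher and 1 lower, and the number that rose was 1 without KO day 1 single-hyphen replicate 3 or KO day 1 double-hyphen replicate 2 and 2 to 4 without each other library.

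None of 30 interferon response genes was called (median log2 difference 0.16). Isg15 and Ifit1, antiviral genes induced by interferon, differed by -0.43 ± 0.56 and 0.57 ± 0.42 (adjusted p = 0.629 and 0.373, edgeR over all genes). Of 25 immediate early genes, which respond first to any stimulus, 4 rose and 1 fell, with a median of -0.03, and under total-count scaling 3 were higher and 3 lower. Jund, a subunit of AP-1, was at 115 to 172 CPM in the double-hyphen and 61.9 to 89.3 CPM in the single-hyphen libraries (0.88 ± 0.08, adjusted p = 0.000566). Atf3, a stress-induced repressor, was at 138, 139.9, 209.8, 112 and 137 CPM against 28.1 to 90.2 CPM (1.38 ± 0.28, adjusted p = 0.0144). Both sets of double-hyphen values lay above all single-hyphen ones. The number of immediate early genes that rose was 2 without KO day 1 double-hyphen replicate 2, KO day 1 single-hyphen replicate 3 or either WT double-hyphen library, and 3 to 4 without each other library.

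The 15 genes of alternative activation also split, with 2 that rose and 3 that fell (median -0.19). Clec7a, the beta-glucan receptor dectin-1, had 787, 709.5, 1205, 482 and 650.0 CPM against 83.0 to 403 CPM, median 295, without overlap (1.62 ± 0.35, adjusted p = 0.0168). Arg1, arginase of alternatively activated macrophages, had 0.604 to 2.74 CPM against 0.997 to 57.7 CPM (-3.53 ± 0.86, adjusted p = 0.0258, called in 7 of 12 omissions). Fn1, fibronectin, which stromal cells also make, was at 34.4, 100.35, 94.7, 529 and 447 CPM against 102 to 1549.9 CPM (-2.11 ± 0.32, adjusted p = 0.00555). Among 13 genes of antigen presentation on MHC class II, 1 passed, the protease Ctss (0.99 ± 0.22, adjusted p = 0.0188). The other 12 summed to 827 to 1383 CPM in the double-hyphen and 712 to 2083 CPM in the single-hyphen libraries, which overlapped, and total-count scaling called 1 of the 13 higher and 1 lower.

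Lysosomal genes were higher. Of 24 tested, 10 rose and none fell, with a median log2 difference of 0.45, and under total-count scaling 9 were higher and 1 was lower. Psap, the precursor of the activators of sphingolipid breakdown, had 39384, 38888, 45784, 33748 and 38328 CPM in the double-hyphen libraries against 12617 to 24775 CPM, median 22078, in the single-hyphen ones. The ranges did not overlap (0.97 ± 0.17, adjusted p = 0.00802), and the call held in all 12 omissions. Ctsd, the aspartic protease cathepsin D, was at 22015 to 27468 CPM against 10492 to 16994 CPM (0.86 ± 0.15, adjusted p = 0.00782). The proteases Ctsh and Ctsb and the acid lipase Lipa rose as well (0.91 ± 0.20, 0.64 ± 0.14 and 0.82 ± 0.12). The whole list summed to 104560 to 128450 CPM in the double-hyphen libraries and to 52888 to 85704 CPM in the single-hyphen ones. The number that rose was 5 without either WT day 1 double-hyphen replicate 1 or KO day 1 single-hyphen replicate 3, and 8 to 13 without any other library.

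Calls in the antioxidant and cholesterol synthesis lists were upward only, by smaller amounts. Of 18 genes of the antioxidant response, 8 rose and none fell (median 0.36), among them Srxn1, which repairs peroxiredoxins (0.68 ± 0.10), Gsta3, a glutathione transferase (0.74 ± 0.11), Prdx1, a peroxiredoxin (0.51 ± 0.10) and Hmox1, heme oxygenase (0.58 ± 0.15). That number was 3 under total-count scaling, where 1 was lower, and 3 without WT day 1 double-hyphen replicate 1. It was 4 without WT day 0 double-hyphen replicate 1, KO day 0 single-hyphen replicate 3, WT day 1 single-hyphen replicate 2 or either KO day 1 double-hyphen library, and 5 without KO day 1 single-hyphen replicate 3. Of 22 cholesterol synthesis genes 5 rose and none fell (median 0.15), led by Sc5d, a late sterol desaturase (0.80 ± 0.09, adjusted p = 0.0016), and under total-count scaling 1 was higher and 2 were lower. Read by day, the cholesterol synthesis median was 0.31 on day 0 and -0.09 on day 1, where 13 of the 22 genes were below 0. The cholesterol synthesis number was 2 without KO day 0 double-hyphen replicate 2, KO day 0 single-hyphen replicate 1, KO day 1 single-hyphen replicate 3 or WT day 0 double-hyphen replicate 1, and 3 to 5 without each other library. The remaining lists of this kind held few calls, with 2 higher and 1 lower of 22 genes of glycolysis and the hypoxia response, 3 higher of 20 of the amino acid stress response, and 1 each way of 14 heat shock genes. Their median log2 differences were 0.01, 0.01 and -0.35. Total-count scaling gave 1 higher and 2 lower, 2 higher and 2 lower, and 1 higher and 3 lower in these lists.

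Of 13 genes of lipid efflux and liver X receptor targets, 4 rose and 1 fell (median 0.11). Apoe, the lipid carrier of macrophages, ran from 15413 to 21498 CPM in the double-hyphen libraries and from 7177 to 18156 CPM in the single-hyphen ones, which overlapped (0.68 ± 0.19, adjusted p = 0.0414). Mylip, which degrades the LDL receptor, rose (1.01 ± 0.19), as did the cholesterol transporter Abcg1 (0.94 ± 0.23), while the fatty acid desaturase Scd1 fell (-1.20 ± 0.30). Total-count scaling called 2 of these genes higher and 4 lower, and the number that rose was 1 without either WT double-hyphen library, KO day 1 double-hyphen replicate 2 or KO day 1 single-hyphen replicate 3. The fatty acid carrier Fabp4, outside these lists, had 119.7, 177, 235, 167 and 215 CPM against 5.77 to 39.9 CPM (2.71 ± 0.32, adjusted p = 0.00193), with no overlap between groups.

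**Figure D4:**
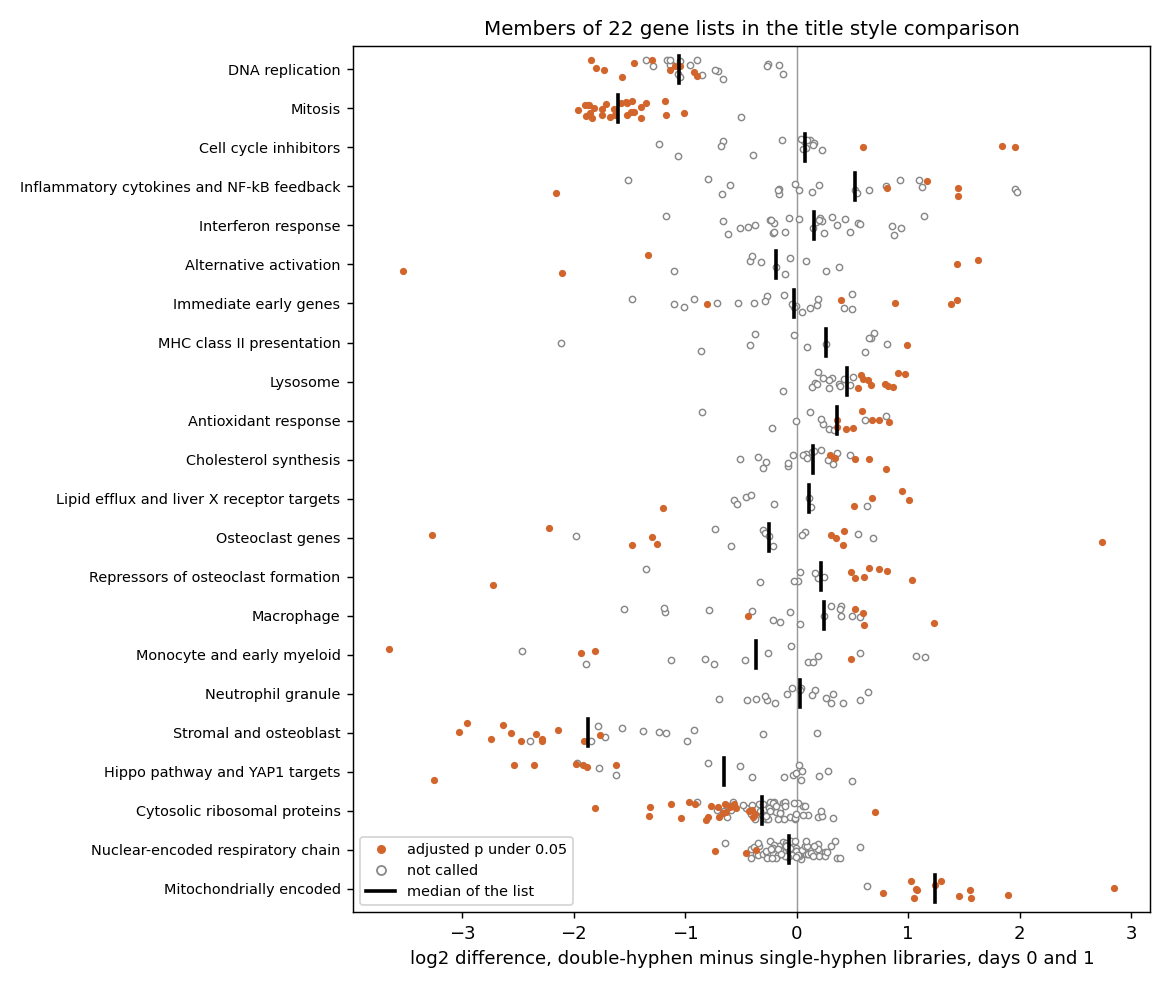
Fitted log2 differences, double-hyphen minus single-hyphen, for the genes of 22 lists. Each point is a gene, filled orange where its adjusted p is under 0.05 and open grey otherwise, and the black bar is the list's median, which is -1.60 for mitosis, 0.45 for lysosome and 1.24 for mitochondrially encoded genes.

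Osteoclast genes divided evenly. Of 26 listed, 21 were tested, of which 5 rose and 5 fell (median -0.25). Those that rose were Atp6v0d2, Clcn7, Ostm1, Tcirg1 and Igsf8, of which the first 4 belong to the machinery that acidifies lysosomes and the resorption space. Atp6v0d2, a proton pump subunit that also acts in cell fusion, had 306, 344, 760.3, 263 and 405 CPM against 10.5 to 149 CPM, without overlap (2.74 ± 0.58, adjusted p = 0.0164). Those that fell were Ocstamp, Slc9b2, Mmp9, Jdp2 and Myo1d. Ocstamp, a membrane protein of cell fusion, had 0 to 0.542 CPM against 0.0712 to 7.13 CPM (-3.27 ± 0.59, adjusted p = 0.00966), and Mmp9, a matrix protease, had 63.1 to 124 CPM against 56.5 to 526 CPM (-1.30 ± 0.35, adjusted p = 0.0342). Nfatc1, the master regulator of osteoclasts, Ctsk, their main collagenase, and Acp5, the acid phosphatase used to stain them, did not pass (-0.21 ± 0.08, 0.69 ± 0.26 and -0.30 ± 0.26, adjusted p = 0.0888, 0.0972 and 0.448). Total-count scaling called 1 higher and 6 lower. Leaving out single libraries gave 0 to 7 higher, with 0 without WT day 1 double-hyphen replicate 1, and 1 to 6 lower, with 4 to 6 without the WT libraries of day 0 and 1 to 2 without each other library.

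Of 16 genes listed as repressors of osteoclast formation, 7 rose and 1 fell (median 0.22), whereas total-count scaling gave 3 in each direction. The list as drawn up also holds Spi1, the gene of PU.1, which the paper names as crucial for osteoclast differentiation. Its counts and median are therefore not those of repressors alone. Bcl6 and Irf8, transcription factors that block the RANKL programme, differed by 0.64 ± 0.15 and 0.49 ± 0.15. The inhibitory receptors Pirb and Lilrb4a rose by 0.74 ± 0.14 and 0.60 ± 0.09. The inhibitors of helix-loop-helix factors moved apart, Id2 up (1.04 ± 0.24) and Id3 down (-2.72 ± 0.43, adjusted p = 0.00625, called in all 12 omissions). The number that rose was 2 without WT day 1 double-hyphen replicate 1, 4 without WT day 1 single-hyphen replicate 2, and 3 without WT day 0 double-hyphen replicate 1, KO day 1 single-hyphen replicate 3 or KO day 1 double-hyphen replicate 2.

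The labelled cell type was present in both styles by its markers. Csf1r, the M-CSF receptor, ran from 3404 to 5398 CPM in the double-hyphen and 2059 to 6704 CPM in the single-hyphen libraries (0.25 ± 0.20, adjusted p = 0.425), and Adgre1, which encodes F4/80, differed by 0.03 ± 0.11 (adjusted p = 0.88). Of 21 macrophage markers, 4 rose and 1 fell (median 0.25), and under total-count scaling 1 rose and 3 fell. Cd68, a lysosomal glycoprotein, had 1740.3 to 2346 CPM against 1034 to 1584 CPM (0.59 ± 0.11, adjusted p = 0.0118). Lyz2, lysozyme, had 34768 to 46193 CPM against 18419 to 34085 CPM (0.61 ± 0.18, adjusted p = 0.0454, called in 2 of 12 omissions). The scavenger receptor Msr1 fell (-0.44 ± 0.13). Leaving out single libraries gave 1 to 6 markers that rose, with 1 without WT day 1 double-hyphen replicate 1 or KO day 1 single-hyphen replicate 3.

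Among monocyte genes, the receptors Cx3cr1 and Ccr2 fell. Of 18 tested, 1 rose and 3 fell (median -0.36), and total-count scaling called none higher and 5 lower. Cx3cr1, the fractalkine receptor of patrolling monocytes, had 1.68, 1.63, 1.16, 4.81 and 3.56 CPM in the double-hyphen libraries and 2.92 to 64.0 CPM, median 19.4, in the single-hyphen ones (-3.65 ± 0.57, adjusted p = 0.00585, called in all 12 omissions). Ccr2, the chemokine receptor of classical monocytes, had 6.71 to 16.3 CPM against 11.5 to 143 CPM (-1.94 ± 0.47, adjusted p = 0.0255, called in 7 of 12). Both ranges overlapped at the low end of the single-hyphen libraries. Vcan, a proteoglycan of early monocytes, fell too (-1.81 ± 0.39), and Irf8, which is in this list as well, rose but stayed called in 2 of 12 omissions. The number of monocyte genes that fell was 1 without WT day 0 double-hyphen replicate 1, 5 without WT day 0 single-hyphen replicate 2, 2 without KO day 1 single-hyphen replicate 3 or any of the KO double-hyphen libraries, and 3 without each other library. None of 18 neutrophil granule genes was called (median 0.03), with S100a8 at -0.20 ± 0.61 (adjusted p = 0.856), although the list summed to 479 to 13250 CPM over the single-hyphen libraries and 1918 to 4152 CPM over the double-hyphen ones. The style difference in KO-labelled less that in WT-labelled libraries was below 0 for all 18 (median -2.70, against 0.08 over all genes), and none was called. In KO-labelled libraries alone 5 fell, so the pooled median does not show equal levels in both styles.

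Stromal genes were lower in the double-hyphen libraries, with a wide spread in both styles. Of 24 tested, 12 fell and none rose (median -1.88), where 8.32% of all genes fell. Within none of the 4 combinations of label and day did 15 of them overlap, where 11.5% of all genes were lower without overlap. With each day read apart, none of the 24 was called on day 0 (median -2.39) or on day 1 (median -1.38). Col1a1, the chain of type I collagen, had 27.0, 349.7, 68.4, 1302.5 and 798 CPM in the double-hyphen libraries against 199.7 to 3107.5 CPM, median 1299 (-3.03 ± 0.77, adjusted p = 0.0301). The lowest values, 27.0 and 68.4 CPM, were those of the 2 double-hyphen libraries labelled WT. The whole list summed to 166 CPM in WT day 0, 1598 CPM in KO day 0, 438 CPM in WT day 1 and 5157 and 3605 CPM in KO day 1 double-hyphen libraries, against 747 to 10297 CPM in the single-hyphen ones. The number that fell was 0 without WT day 0 double-hyphen replicate 1, 1 without WT day 1 double-hyphen replicate 1, and 3 and 6 without the KO day 1 double-hyphen replicates 2 and 1. It was 4 without KO day 0 double-hyphen replicate 2, KO day 0 or KO day 1 single-hyphen replicate 3, or either WT day 1 single-hyphen library. It was 8 without KO day 0 single-hyphen replicate 1, and 16 to 17 without either WT day 0 single-hyphen library.

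Matrix and contact genes outside that list were among the largest drops. Pappa, a protease of insulin-like growth factor binding proteins, and Col11a1, a fibrillar collagen chain, differed by -3.99 ± 0.79 and -3.29 ± 0.69, and Has2, hyaluronan synthase, by -3.15 ± 0.53, and these 3 stayed called in all 12 omissions. Adamts12, a secreted metalloprotease, fell by 3.32 on the log2 scale and lost its call without WT day 1 double-hyphen replicate 1 (adjusted p = 0.0542). Of 22 genes in a list of the Hippo pathway and YAP1 targets, 7 fell and none rose (median -0.66). Trim46 and Zmat1, genes the study followed, were counted in this list as well, and neither was called. Ankrd1, a cytoskeleton-responsive YAP1 target, had 0.305, 4.32, 1.70, 3.90 and 3.49 CPM, all below the 4.70 to 36.7 CPM of the single-hyphen libraries (-3.25 ± 0.44, adjusted p = 0.00319). The secreted targets Ctgf and Cyr61 fell as well (-2.53 ± 0.51 and -2.36 ± 0.52). Yap1 itself differed by -1.92 ± 0.58 (adjusted p = 0.049, called in 2 of 12 omissions), and Trim46, a ubiquitin ligase the study followed, did not pass (-0.80 ± 0.62, adjusted p = 0.404). The number that fell was 1 without WT day 1 double-hyphen replicate 1, 3 without WT day 0 double-hyphen replicate 1 or KO day 0 double-hyphen replicate 2, 4 without KO day 1 double-hyphen replicate 2 and 5 to 9 without any other library. Stromal markers moved with these genes, and their part in the drop was not tested.

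The erythroid list came down to the globin genes. Of 5 members tested, 4 fell (median -6.62), and all 4 were globins. Hba-a1, an alpha globin gene (chr11:32283511-32284465), had 0, 1, 0, 1 and 0 reads in the double-hyphen libraries and 74 to 96 reads in the single-hyphen ones of days 0 and 1 (-7.31 ± 0.44, adjusted p = 7e-05). Hbb-bs, a beta globin gene, had 0 to 4 reads against 127 to 162 (-6.62 ± 0.47, adjusted p = 0.00024). Day 3 libraries, all single-hyphen, had 73 to 109 and 137 to 164 reads of these genes. Against a floor of 3 reads in each library, the differences were at least 27.3-fold lower for Hba-a1 and at least 8.15-fold lower for Hbb-bt. The globin gene pairs are near-identical, so reads could be split between them. The erythroid genes Slc4a1, Rhag, Alas2 and Car1 had 0 reads in all 18 libraries. The 4 calls held in all 12 omissions and under total-count scaling.

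Other lineages gave few calls in the pooled fit, which does not show equal levels in both styles. None of 11 endothelial (median -0.62) and none of the 3 T and NK cell genes with enough reads was called, and no adipocyte marker had enough reads for a test. Mcpt8, a basophil protease, was the 1 of 7 mast cell, basophil and eosinophil genes that fell, and it was called in 1 of 12 omissions. Of 9 dendritic cell genes 2 fell, Siglech of plasmacytoid cells and Fscn1, listed for mature dendritic cells. Fscn1 was lowest in the WT-labelled double-hyphen libraries (6.18 and 14.1 CPM), as were Ebf1 of the B cell list (0.763 and 0.774 CPM) and the stromal Col1a1. Which cells the drops of Fscn1 and Ebf1 came from was not tested. Pf4, a chemokine of megakaryocytes that macrophages also make, had 27.0 to 55.35 CPM against 92.8 to 335 CPM, without overlap (-2.19 ± 0.37, adjusted p = 0.00779), whereas Vwf, the clotting factor carrier, rose (1.55 ± 0.37). The B cell list gave 1 in each direction, Blnk up and Ebf1 down.

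Mitochondrially encoded genes were higher in the double-hyphen libraries and ribosomal protein genes were lower. Of 13 mitochondrial genes tested, 12 rose and none fell (median 1.24), and the same 12 did not overlap within any of the 4 combinations of label and day. Of all genes, 10.6% were higher without overlap. The number of mitochondrial genes that rose was 12 to 13 in the omissions and 12 under total-count scaling. mt-Nd2, a subunit of complex I (MT:3914-4951), had 1523, 1859, 2069, 1575 and 1815 CPM against 392 to 570.2 CPM, median 483, and its difference had the smallest adjusted p of all genes (1.89 ± 0.10, adjusted p = 4.69e-05). mt-Nd6, encoded on the other strand, was the member that did not pass (0.63 ± 0.27, adjusted p = 0.132).

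Composition within the mitochondrial reads shifted as well. mt-Co1, the catalytic subunit of complex IV, took 40.0% to 48.2% of the mitochondrial reads in the single-hyphen and 31.5% to 34.95% in the double-hyphen libraries, while mt-Nd2 took 2.26% to 3.45% against 4.89% to 5.61%. mt-Atp6, a subunit of ATP synthase, had 683 and 712 CPM in the double-hyphen libraries of day 0 and 4260.4, 3339 and 3888 CPM in those of day 1, against 203 to 335 CPM in the single-hyphen libraries. It took 2.15% to 2.28% of double-hyphen mitochondrial reads on day 0 and 10.5% to 10.8% on day 1, against 1.53% to 1.68% in the single-hyphen libraries of either day. The interaction of style with day for mt-Atp6 did not pass (adjusted p = 0.095), and reads in its overlap with mt-Atp8 can belong to either gene. Nuclear-encoded genes of the respiratory chain did not follow, with 0 that rose and 3 that fell among 77 (median -0.07), and under total-count scaling none was higher and 25 were lower.

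Of 75 cytosolic ribosomal protein genes, 23 fell and 1 rose (median -0.31), and under total-count scaling 46 were lower and none was higher. Rpl36a differed by -1.32 ± 0.18 (adjusted p = 0.00319) and Rpl39l, a testis-enriched copy of Rpl39, by -1.81 ± 0.44, while Rpl35a rose (0.70 ± 0.16). Many ribosomal protein genes have processed copies elsewhere in the genome, so their counts are less certain. The number that fell was 11 without WT day 1 double-hyphen replicate 1, 13 without KO day 1 single-hyphen replicate 3, 15 without either KO day 1 double-hyphen library and 16 to 25 without any other.

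A few genes were close to absent in one style. Ins2, a mouse insulin gene (chr7:142678656-142699510), had 96, 156, 94, 787 and 113 reads in the double-hyphen libraries and 0 in all 13 single-hyphen libraries, those of day 3 included, so it was at least 83.0-fold higher against a floor of 3 reads in each library (adjusted p = 0.0172). Without KO day 1 double-hyphen replicate 1, which had the 787 reads, that bound was 42.5-fold. Bex1, an adaptor protein best known from neurons, had 69, 86, 204, 63 and 92 reads against 0 to 11 (4.52 ± 0.59, adjusted p = 0.003). C77080 was at 122 to 248 CPM against 1.01 to 15.7 CPM (4.24 ± 0.59, adjusted p = 0.00362), and Mgll, the lipase of monoacylglycerols, at 13.2 to 52.5 CPM against 0.957 to 12.4 CPM (2.80 ± 0.67, adjusted p = 0.024). The first 3 stayed called in all 12 omissions and Mgll in 8. Ighg2c, an immunoglobulin constant gene, did not follow style alone. It had 123 and 132 reads in the WT-labelled and 1123, 1045 and 945 in the KO-labelled double-hyphen libraries, but also 1093 in KO day 0 single-hyphen replicate 1, against 0 to 29 in the other single-hyphen ones of days 0 and 1 and 0 to 134 in those of day 3 (4.26 ± 1.21, adjusted p = 0.0415, called in 4 of 12). Ugt1a9, which shares exons with its Ugt1a neighbours, had 50.7, 30.8 and 5.04 CPM in WT day 0 replicate 2, KO day 0 replicate 3 and KO day 1 replicate 3 of the single-hyphen libraries, and 0 to 0.0665 CPM in the other single-hyphen ones, against 0 to 0.0763 CPM in the double-hyphen ones, and it was called in 3 of 12 omissions.

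The style difference was also read on each day apart, from terms of the same fit. On day 0, with 2 double-hyphen libraries, 64 genes (0.471%) were called, 45 higher and 19 lower. On day 1, with 3 double-hyphen libraries, 1191 (8.77%) were called, 737 higher (5.43%) and 454 lower (3.34%). Total-count scaling turned both balances, to 20 higher and 34 lower on day 0 and 252 higher and 1761 lower on day 1. The day 0 balance also turned by DESeq2 (358 higher, 735 lower) and with all 18 libraries in the fit (266 higher, 294 lower). It turned too without WT day 0 single-hyphen replicate 2 (241 higher, 535 lower) or 3 (82 higher, 165 lower). The day 1 balance also turned with the day 1 libraries fitted alone (533 higher, 848 lower). Without WT day 0 single-hyphen replicate 3 it was 851 higher and 1264 lower. Of the 64 day 0 genes, 54 were also called on day 1 in the same direction. No mitosis gene was called on day 0 (median -1.19) and 25 of 28 were on day 1 (median -2.06), while for DNA replication the counts were 0 (median -0.61) and 12 (median -1.60). Among mitochondrial genes 8 were called on day 0 and 12 on day 1. Unequal counts do not by themselves show that the days differed, and the interaction of style with day was called for 1 gene (0.00737%), with 1014 at an unadjusted p under 0.05. Its value was below 0 for all 30 DNA replication genes (median -1.03) and all 28 mitosis genes (median -0.90), against a median of 0.08 over all genes, and none of these was called. Day 0 gave 776 calls without WT day 0 single-hyphen replicate 2, 247 without WT day 0 single-hyphen replicate 3, 81 and 78 without KO day 1 single-hyphen replicate 3 and WT day 1 double-hyphen replicate 1, and 1 to 19 without each other library. Day 1 gave 11 without WT day 1 double-hyphen replicate 1, 1931 and 2115 without WT day 0 single-hyphen replicates 2 and 3, and 263 to 721 without each other library.

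The style difference was compared between labels in the same way. No gene passed for the interaction of style with label by edgeR (0%), with 944 at an unadjusted p under 0.05 and 35 called by DESeq2. Within the KO-labelled libraries alone 1440 genes were called for style, and within the WT-labelled libraries alone none was by edgeR, with 2180 at an unadjusted p under 0.05. For mitosis the counts were 26 in KO-labelled and 0 in WT-labelled libraries, and for DNA replication 17 and 0. These counts do not show that the labels differ, since the interaction itself was not called.

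The response to RANKL was estimated within each style. In the single-hyphen libraries, 1336 genes (9.84%) changed between day 0 and day 1, 634 (4.67%) upward and 702 (5.17%) downward. Total-count scaling called 1713, of which 1230 (71.8%) were higher and 483 lower, against 47.5% higher under TMM. In the double-hyphen libraries 2 genes did (0.0147%), mt-Atp6 upward and Pet117 downward, with 991 at an unadjusted p under 0.05. The fit holds the style difference of a day equal in both labels, so the double-hyphen libraries also enter the single-hyphen estimate. Acp5 differed by 1.496 ± 0.28 in the single-hyphen libraries (adjusted p = 0.0216) and by 0.52 ± 0.34 in the double-hyphen ones (adjusted p = 0.716), and the difference between these was not called (adjusted p = 0.652). Jdp2, an AP-1 factor needed for osteoclasts, differed by 2.23 ± 0.29 and 0.41 ± 0.36. Ocstamp differed by 2.67 ± 0.60 (edgeR, adjusted p = 0.0314) and 3.53 ± 1.24 (adjusted p = 0.647), with no called interaction (adjusted p = 0.858). Its double-hyphen levels were near the floor, at 0.0763 and 0 CPM on day 0 and 0.336 to 0.542 CPM on day 1.

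Cell-cycle and sterol genes gave the same picture of calls in 1 style with no called interaction. With RANKL, 8 of 30 DNA replication genes rose in the single-hyphen libraries (median 1.13) and none was called in the double-hyphen ones (median 0.11). For mitosis the figures were 3 of 28 (median 0.97) and none (median 0.02), and Mki67 differed by 0.97 ± 0.19 and -0.38 ± 0.22. Of 22 cholesterol synthesis genes 18 rose in the single-hyphen libraries (median 0.89) and none was called in the double-hyphen ones (median 0.53), where Hmgcs1, the enzyme before the rate-limiting step, differed by 0.46 ± 0.11 (adjusted p = 0.598) against 0.84 ± 0.09. Lysosomal genes fell in 7 of 24 cases in the single-hyphen libraries (median -0.31), and none was called in the double-hyphen ones (median 0.02). The number of single-hyphen RANKL calls was 3230 without WT day 0 single-hyphen replicate 3, 1087 without WT day 0 single-hyphen replicate 2 and 1010 without WT day 1 double-hyphen replicate 1. It was 85 and 289 without KO day 0 single-hyphen replicates 1 and 3, 113 without WT day 1 single-hyphen replicate 1, and 403 to 742 without each other library.

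**Figure D5:**
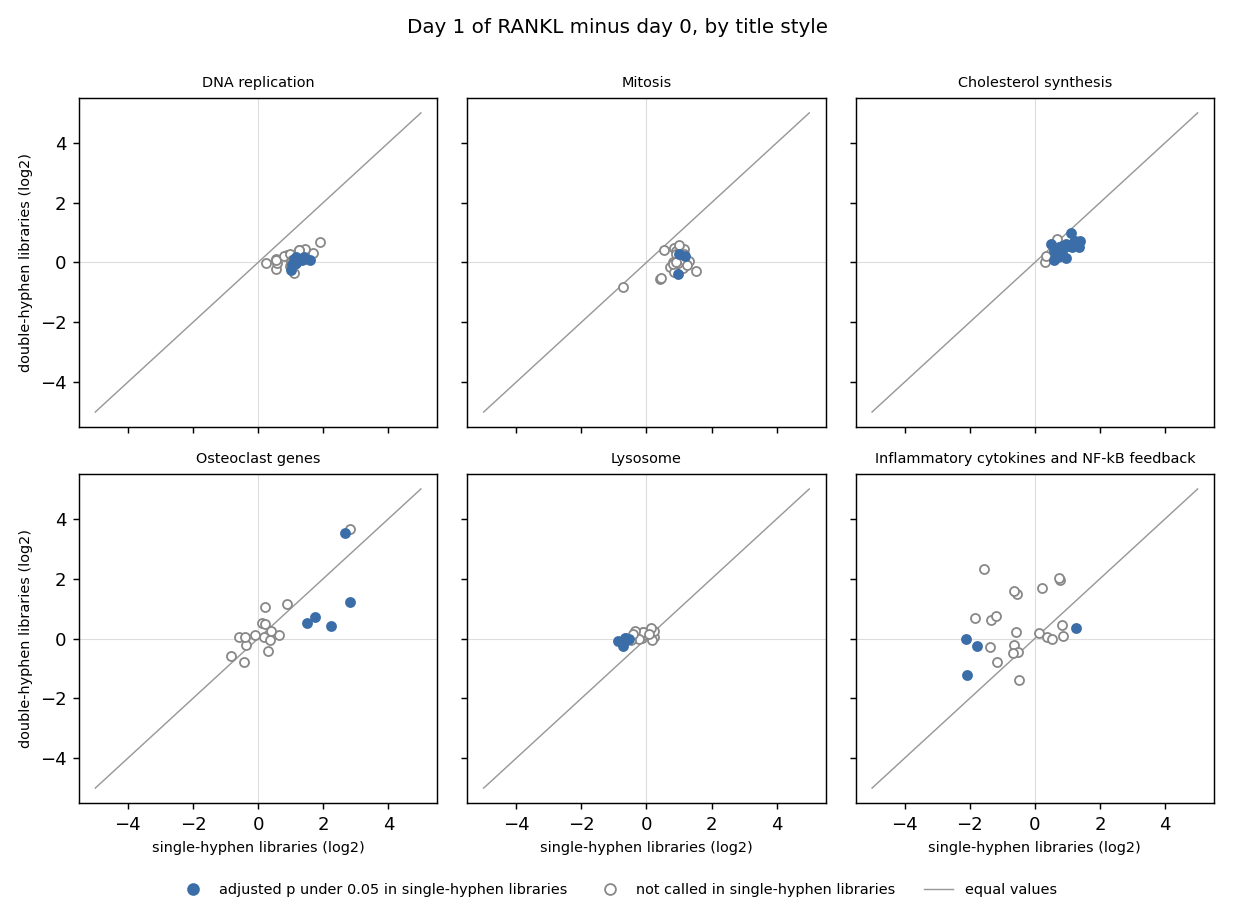
Fitted log2 difference of day 1 minus day 0 in the single-hyphen libraries (horizontal) and in the double-hyphen libraries (vertical) for the genes of 6 lists, 1 point a gene, with the line of equal values. Blue points passed an adjusted p of 0.05 in the single-hyphen libraries, and most DNA replication points lie right of the line, with medians of 1.13 and 0.11.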

How the data were processed

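The labels describe RNA taken with a column kit and libraries made with a SMARTer messenger RNA kit. The authors deposited 1 table of 34745 genes with read counts and FPKM values for 18 libraries, made on GRCm38.p4 (mm10) with StringTie per the submitters' processing notes. The aligner and the counting program are not given in the sources used here. The deposited counts were used as they stand, the deposited FPKM values were not used, and the table holds 0 columns without a sample. Gene positions (GRCm38) are those of the table, 59 symbols stand on more than 1 line, and the strand setting of the counting is not stated.

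Counts of the 12 libraries of days 0 and 1 were fitted in R 4.3.3 with edgeR 4.0.16 (filterByExpr over the 4 groups of label and day, TMM, glmQLFit, glmQLFTest), which kept 13577 genes, and 14522 had 0 reads in all 12. The common dispersion was 0.07174. A term for title style beside the 4 groups gave the style difference, given as double-hyphen minus single-hyphen on the log2 scale with its SE, and fits with a style term for each day or each label gave the values for each day, the RANKL differences within each style and the interactions. The SE is the absolute log2 difference divided by the square root of the F statistic of its test. It is approximate, above all for genes with reads near 0 in 1 style. P-values are 2-sided and Benjamini-Hochberg adjusted over all genes tested, with calls at an adjusted p under 0.05. CPM use TMM-scaled library sizes. Library measures were compared by exact permutation of title style within label and day. Depth, 13789775 to 17559958 counts a library, limits genes with few reads, and bounds use a floor of 3 reads in each library, which covers counting error only. A chi-square of counts per gene was 20.0 to 103 between libraries of one style and group, so no library was taken for a repeat. The scripts were tested on simulated counts.

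The members, 34 gene lists and tests were chosen with earlier results of these data known. The rule for named genes took up to 2 called members with the largest fold change in each direction of each list, the 10 largest called differences in each direction at a mean of 5 CPM or more in the higher style and with the same sign in all 4 groups, Zmat1, Trim46 and Yap1, up to 5 called interactions with day in each direction, and the most abundant member of each lineage list, which came to 91 genes. Further list members were named after their values were seen. Alternatives were other filters, RLE scaling, DESeq2 1.42.0, all 18 libraries, an additive fit, replicate number as a block, each label and day alone and each library left out, and, chosen after seeing the data, total-count scaling. Values of some list members are not reported here.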

Additional observations from a re-analysis of the deposited data

Results flagged for a closer look

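Pet117, which encodes an assembly factor of cytochrome oxidase, was the 1 gene whose style difference differed between days by the interaction test, with a log2 value of -12.65 ± 1.19 (day 1 minus day 0, edgeR, adjusted p = 0.0341 over 13577 genes). It had 155 reads in the WT day 0 and 105 in the KO day 0 double-hyphen library, 117 in KO day 1 single-hyphen replicate 3, and 1 in each of the other 9 libraries. Read by day, the log2 difference between styles was 6.96 before RANKL (adjusted p = 0.013), and it was -5.69 after 1 day of RANKL (adjusted p = 0.014). The call rested on few libraries, since without KO day 1 single-hyphen replicate 3 the value was -6.64 (adjusted p = 0.181), and with the title number as a block it was -12.09 (adjusted p = 0.197). The call was lost without each of 9 of the 12 libraries, and the adjusted p ran from 1.15e-13 by DESeq2 to 0.493 without KO day 1 double-hyphen replicate 2. Pet117 overlaps Csrp2bp, so its reads can be given to either gene.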

How the results depend on the processing

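Of the values of named genes under the alternatives, 1585 stayed on their side of the threshold, 639 lost the call and 1 gained it. A sign other than the reported one came up in 29 values of 9 genes, of which 8 were not called in the reported comparison. The remaining one was Ugt1a9 at 2.07 with the title number within label as replicate block (adjusted p = 0.522), and Cd4 turned past the threshold at -0.64 in KO-labelled libraries alone (adjusted p = 0.033). The style difference over days 0 and 1 gave 3335 calls by DESeq2, which kept 2166 of the 2167, 3310 with all 18 libraries in the fit, 3332 with total counts, 1440 in KO-labelled and 0 in WT-labelled libraries alone, and 0 on day 0 and 1381 on day 1 alone, where 1724 day 0 genes had an unadjusted p under 0.05. Without single libraries it ran from 766 to 3262. Day 0 gave 103 without a filter, 40 with RLE scaling, 1093 by DESeq2, 560 with all 18 libraries, and 1 to 776 without single libraries, and day 1 gave 2238 by DESeq2, 2140 with all 18, 2013 with total counts, and 11 to 2115. Style by day gave 2 without a filter, 35 by DESeq2, 2 with all 18 and 0 to 2 without single libraries, and style by label 35 by DESeq2, 1 with all 18 and 0 to 111. RANKL calls in single-hyphen libraries were 2490 by DESeq2, 2581 with all 18 and 85 to 3230 without single libraries, and in double-hyphen libraries 55 by DESeq2 and 0 to 6. As a replicate block the title number gave 218 calls for style over days 0 and 1, 29 when taken within label, 0 on day 0, 150 on day 1, 0 for style by day, 755 for RANKL in single-hyphen and 0 in double-hyphen libraries. Deviations of same-numbered libraries of a label correlated from -0.166 to 0.339, and those of differently numbered ones from -0.403 to 0.207. These ranges overlap, so whether the numbers pair the libraries was not settled, and the block is given as an alternative only. The cause of these changes was not tested, beyond the fewer libraries in some fits.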
